A study of Mus musculus with 764 samples.

Results

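Among spleen CD4+ T cells sorted for an IL-10 reporter, the cells richest in Il10 transcripts were set against those without a single Il10 read. A cell entered when it held at least 160000 reads over gene rows. Both groups were chosen by their Il10 values: a cell was called high when Il10 reached 2000 CPM, its reads scaled to the same total in each cell (1000000), and none when its Il10 count was 0. Of the spleen cells with enough reads, 26.1% were high and 11.2% were none. The high cells were 58 from well columns 1 to 12 of plate p1, 61 from columns 13 to 24 of p1 and 23 from plate p2, and the none cells were 10, 15 and 36 from these sets, out of 764 cells in the whole series. The cells in between were split at 500 CPM, into mid cells at or above it (75, 54 and 43 from the same sets) and low cells with at least 1 read below it (38, 54 and 77).

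All cells came from mice with an eGFP reporter of IL-10 and an mRFP reporter of Foxp3, which had been given the anti-CD3 antibody 2C11 intraperitoneally on alternate days and killed a few hours after the last injection. There was no untreated group and no reporter-negative group. Cells were sorted as IL-10 eGFP+ CD4+ T cells, Foxp3+ cells included, from spleen or small intestine, with 1 SMART-seq2 library (cDNA over the whole transcript) for each. The labels named the plate and the well of a cell, but no animal, age or sex. The spleen therefore counts as 1 sample without replicates, no test was run, and every value below describes these cells.

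IL-10 is an anti-inflammatory cytokine that restrains antigen-presenting cells and effector T cells, and mice that lack it develop colitis. Among CD4+ T cells it is made by Foxp3+ regulatory T (Treg) cells, by Foxp3-negative type 1 regulatory (Tr1) cells, which carry co-inhibitory receptors such as LAG-3, and by effector cells of several kinds. The sort reads the reporter as green fluorescence, and protein can outlast the transcript that encoded it, so an eGFP+ cell need not hold Il10 mRNA at the moment it is lysed.

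The high cells held between 2004 and 20384 Il10 CPM, with a median of 3418. The 3 cells just inside the limit held 2003.6, 2015.3 and 2018.8 CPM, and the 3 just outside held 1993, 1989.4 and 1986. Near that limit the cells formed a continuum, as the plot of Il10 per cell shows. At the other end, 35 cells held exactly 1 Il10 read, which was worth 2.22 to 5.68 CPM, and 60 held 1 to 9 reads. In a cell of the none group, a count of 0 allows up to 6.18 CPM in the deepest and 18.6 CPM in the shallowest cell. The none cells were thus separated from the lowest low cells by 1 read.

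High and none cells were not spread alike over the plates. On p1, 32.6% of cells were high (95% exact binomial interval 27.8 to 37.7) and 6.85% were none (25 cells, 4.48 to 9.95). On p2, 12.8% were high (23 cells, 8.32 to 18.7) and 20.1% were none (36 cells, 14.5 to 26.7). These and all later intervals hold the counting error over cells alone, because the spleen has no replicates. In addition, reads copied by PCR and not tagged by molecule are not independent. The none cells were not confined to 1 corner of a plate: every one of the 12 spleen columns of p2 held 1 to 5 of them, and on p1 the 24 columns held 0 to 4. Because p2 supplied more of the none cells and p1 most of the high cells, each ratio was also computed within each plate.

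Depth was close in both groups. The high cells held 176035 to 622997 reads (median 355153.5) and the none cells 161141 to 485538 (median 323323). The number of genes with a read was 2176 to 6116 in high cells (median 3495.5) and 2097 to 5358 in none cells (median 3136). Shares of cells with a read are therefore given after each cell was thinned to 160000 reads, unless stated otherwise.

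The reporter transcript went with Il10. Its row was not used to form the groups, but eGFP was placed in these mice to report IL-10, so its reads are not independent of them. An eGFP read was present in 88% of high (interval 81.5 to 92.9), 72.7% of mid, 41.4% of low and 2 of 61 none cells (3.28%, 0.4 to 11.3), without thinning. Both none cells with a read held 1 read, whereas high cells held up to 925 reads, with a median of 42.5. At 10 reads or more, the shares were 81% in high and 0% in none cells, and 0 of 61 leaves room for a share of up to 4.92%. The order held on each plate, with 87.4% and 4% on p1 and 91.3% and 2.78% on p2. The none cells had passed the sort on eGFP fluorescence, and yet all but 2 had no read of the reporter transcript. The reason was not tested.

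**Figure D1:**
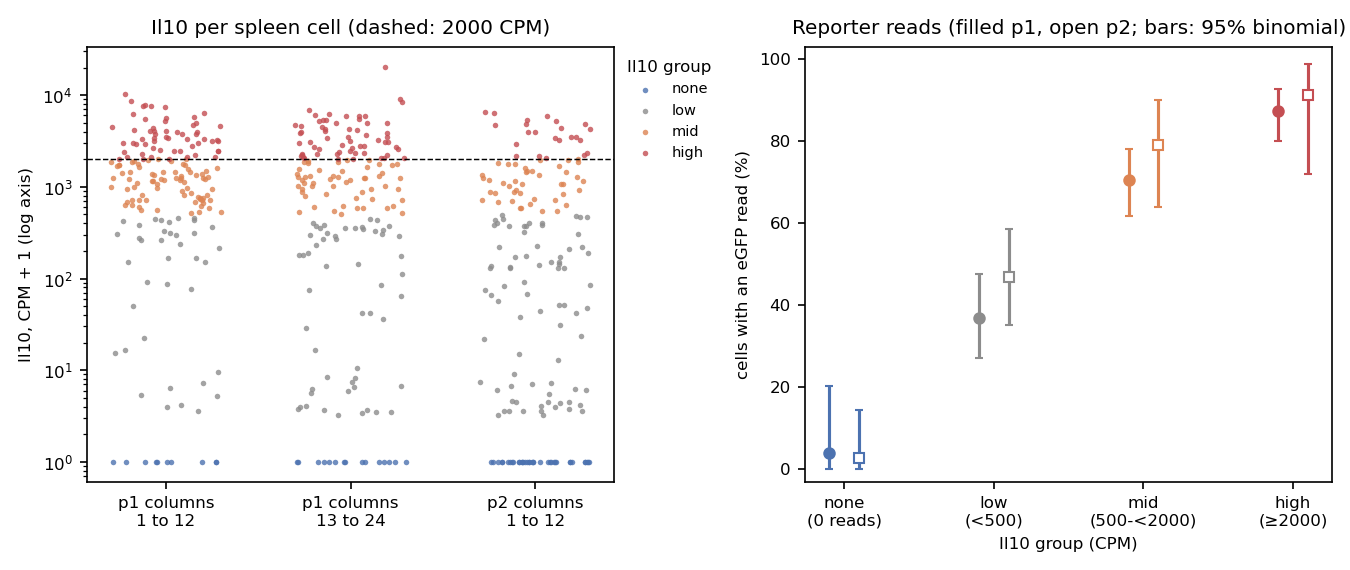
Left, Il10 in CPM + 1 (log axis) of each spleen cell, by plate and well columns, with the dashed line at 2000 CPM; right, the percentage of cells with an eGFP read in the 4 Il10 groups, filled for p1 and open for p2, with 95% exact binomial intervals. Cells at the bottom of the left panel had 0 Il10 reads and are most frequent on p2; the reporter share climbs from 4% and 2.78% in none cells to 87.4% and 91.3% in high cells of p1 and p2.

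Both groups were CD4+ T cells by their markers. Cd3e, an invariant chain of the T-cell receptor complex, and Cd4 had a read in 100% of high and 100% of none cells. Cd3e held 1321 CPM on average in high and 1154 CPM in none cells. None of the 10 T-cell identity genes differed by the fold used below, and their median log2 ratio was 0.22. Markers of other cells were read in few cells, with exceptions named here. All 7 B-cell markers together were at 0 in 90.8% of high and 54 of 61 none cells, their sum reaching 626.7 CPM in 1 high and 371.1 CPM in 1 none cell, and the 6 erythroid or platelet markers found in the table were at 0 in all but 1 high cell and in each of the 61 none cells. The 8 CD8 T-cell or NK-cell markers found were at 0 in 80.3% of high cells and in 51 none cells, the highest sum being 5899 CPM in a high cell and 247.9 CPM in a none cell. Of the 8 myeloid markers, Cst3, which T cells also express, was read in 83.1% and 70.5% of high and none cells, and Cd68 in 13.4% and 3.28%; the summed list ranged from 0 to 1803 CPM in high and 0 to 782.1 CPM in none cells, with 2 and 3 of its genes unread. By the rule given below, 2 of these markers were called higher in high cells. They were Cd22, the only measured B-cell marker, read in 4.93% of high and 0 of 61 none cells (means of 13.1 and 0 CPM), and Cd68, with means of 27.1 and 1.805 CPM. The measured CD8 T-cell or NK-cell markers, Cd8b1 and Klrd1, were not called, and their median log2 ratio was 1.66. What part such cells had in the ratios below was not tested.

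All genes were then compared. A gene counted as measured when its mean was at least 10 CPM over the spleen cells with enough reads, which held for 8476 genes, Il10 itself being left out. Its log2 ratio was taken between the mean CPM of high and of none cells, with 1 CPM added to each mean, which understates the ratio of low genes. A gene is called higher or lower in high cells when it differed at least 2-fold over all cells and at least 2-fold the same way within p1 and within p2. This made 4.11% of the measured genes higher and 3.93% lower, and these shares are the background for every list below. Of all measured genes, 767 (9.05%) differed 2-fold the same way on both plates and 420 (4.96%) opposite ways. Among the 4437 genes with a mean of at least 50 CPM, the shares were 5.48% and 1.6%, so genes with the same direction on both plates outnumbered those with opposite directions at either limit. The median log2 ratio over all measured genes was -0.06.

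**Figure D2:**
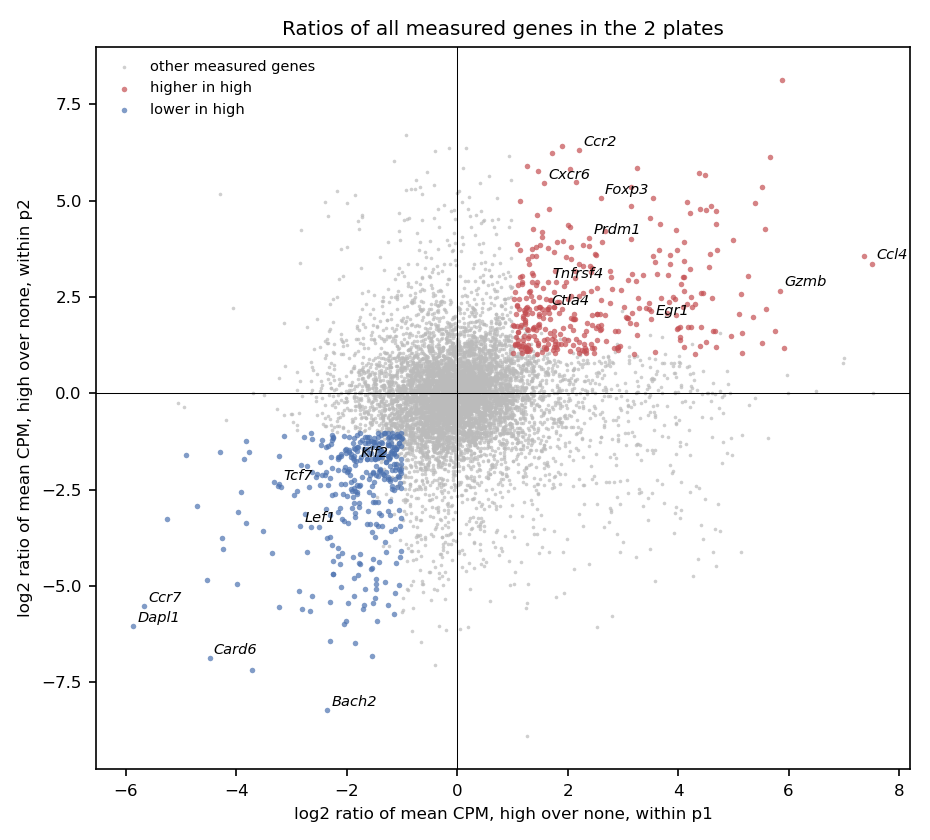
Each point is 1 of 8476 measured genes, placed by its log2 ratio of mean CPM, high over none, within p1 (horizontal) and within p2 (vertical); red and blue mark the genes called higher (4.11%) and lower (3.93%). The red points fill the upper right and the blue ones the lower left by the definition of the call, and the grey points in the other corners are genes whose ratios had opposite signs on the plates.

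Transcription factors linked to Il10 came first. Of 17 measured regulators, 3 were higher in high cells and 0 lower, and the list's median log2 ratio was 0.69. The clearest was Prdm1, which encodes BLIMP-1, a factor of terminal effector differentiation that promotes IL-10 in several T-cell lineages. Prdm1 lay between 0 and 2677 CPM in high cells (median 298.996) and between 0 and 606.7 CPM in none cells (median 0). Only 2 of 61 none cells exceeded the high median, although the ranges overlapped. A Prdm1 read was present in 84.5% of high (interval 77.5 to 90) and 27.9% of none cells (17.1 to 40.8), and the log2 ratio was 3.14 (2.39 on p1, 4.04 on p2).

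Nfil3, a basic leucine zipper factor that can drive IL-10 in helper T cells, ranged up to 1186 CPM in high cells (median 65.5) and up to 503.1 CPM in none cells (median 0). Its share of cells with a read was 59.2% against 14.8%, with a log2 ratio of 2.22. Tbx21, which encodes T-bet, the master regulator of Th1 cells, ranged from 0 to 1172 CPM in high cells (median 219.8) and from 0 to 710.3 CPM in none cells (median 0). The shares of Tbx21 were 79.6% and 29.5%, and its log2 ratio was 2.07. For both genes most none cells were at or near 0 while the upper ends of the groups overlapped.

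Maf, which encodes c-MAF, a direct activator of Il10, was widely expressed in both groups. It was read in 97.9% of high and 82% of none cells, with medians of 697.6 and 215.9 CPM. Its log2 ratio was 1.01 over all cells, 0.52 on p1 and 1.53 on p2, so it did not reach the fold on p1. Batf, a pioneer-like AP-1 factor, had a log2 ratio of 0.84, and Irf4, its partner, 0.25, with 1.38 in columns 13 to 24 and -1.25 in columns 1 to 12 of p1. As a difference of mean log2 values, in which cells without a read weigh more, Maf stood at 2.58, Batf at 2.16 and Irf4 at 1.83. Ahr, the aryl hydrocarbon receptor, which cooperates with c-MAF in Tr1 cells, had a ratio of 1.60 over all cells but 0.87 on p1. Thus high and none cells were set apart by Prdm1, Nfil3 and Tbx21 more than by Maf, which most none cells also held.

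Of genes read in at least 25% of high cells, those with the largest higher ratios included some outside the lists, among them 3 that encode DNA-binding proteins. Runx2, a Runt-domain factor, had a median of 266.5 CPM in high cells (0 to 1647) and 0 in none cells (0 to 582.2), with reads in 81% and 24.6% of cells and a log2 ratio of 2.97. Cebpb, a basic leucine zipper factor, was read in 33.1% and 6.56% of cells (log2 ratio 3.13), though at means of only 18.5 and 1.23 CPM. Klf10, a Krüppel-like factor induced by TGF-beta, was read in 36.6% and 14.8% (log2 ratio 3.09). Further such genes were Arl5a, a small GTPase of the Golgi (71.1% and 31.1% of cells, log2 ratio 3.05), F2rl2, a protease-activated receptor (29.6% and 4.92%, 3.04), and Sv2c, a synaptic vesicle glycoprotein (47.9% and 16.4%, 2.97). For Sv2c, 1 none cell held 64.8% of the group's summed CPM.

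Genes of naive and central memory T cells showed the opposite picture. Of 15 measured genes, 8 were lower in high cells and 0 higher, and each of the 15 had a ratio below 0 (median -1.71). Ccr7, the chemokine receptor that brings T cells into lymph nodes and the T zone of the spleen, lay between 0 and 6080 CPM in none cells (median 736.2) and between 0 and 491.2 CPM in high cells (median 0). Not 1 high cell reached this none median, which pools both plates, and p2 supplied 36 of the 61 none cells. On p1 most none cells had no Ccr7 read: 44% had Prdm1 without Ccr7 and 20% had neither. How far the plates carry this gap was not tested. Ccr7 reads were present in 70.5% of none (interval 57.4 to 81.5) and 7.75% of high cells (3.93 to 13.4), and the log2 ratio was -6.15.

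Tcf7 and Lef1 encode TCF-1 and LEF-1, partner factors that keep T cells in a naive or stem-like memory state. Tcf7 ranged from 0 to 3928 CPM in none cells (median 806) and from 0 to 2148 CPM in high cells (median 0), with reads in 83.6% and 23.9% of cells and a log2 ratio of -3.35. Lef1 ranged from 0 to 1550 CPM in none cells (median 223.6) and from 0 to 364.9 CPM in high cells (median 0), with reads in 83.6% and 41.5% and a log2 ratio of -3.28. The none median was exceeded by 5 high cells for Tcf7 and by 3 for Lef1. These none medians also pool the plates, whose none cells differed. All 3 of Ccr7, Tcf7 and Lef1 were read in 32% of none cells on p1 and 86.1% on p2. How far this carries the small counts was not tested. Bach2, a repressor of effector differentiation that competes with AP-1 and restrains Prdm1, was read in 50.8% of none and 14.1% of high cells, with a log2 ratio of -3.43 (-2.35 on p1, -8.23 on p2, where the 23 high cells averaged 0.285 CPM).

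The other 4 lower genes of this list were Dapl1 (log2 ratio -6.28), Id3, an inhibitor of E proteins (-3.62), Klf2, which maintains the trafficking receptors of resting T cells (-1.85), and Il6ra, the IL-6 receptor (-1.71). Dapl1 and Id3 were sparse even in none cells, at 23% and 19.7% of cells, against 2.82% and 2.11% of high cells. S1pr1, the egress receptor, and Il7r, the IL-7 receptor chain, did not pass: their log2 ratios were -1.71 and -0.81, and the p1 ratio of S1pr1 was -0.33. Ccr7 and the TCF-1, LEF-1 and BACH2 genes thus had larger ratios than S1pr1 and Il7r.

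Among the most strongly lower genes outside this list, Igfbp4, Card6, Ms4a4c and Aff3 were also confined to a minority of none cells. Igfbp4, an insulin-like growth factor binding protein, was read in 31.1% of none and 2.82% of high cells (log2 ratio -6.58), and on p1 in only 8% of none cells. Nsg2, a neuronal vesicle protein, was read in 50.8% and 5.63% (-4.60), Card6 in 29.5% and 2.11% (-5.49), Ms4a4c in 31.1% and 4.23% (-4.76), and Aff3, a nuclear factor of lymphoid cells, in 37.7% and 4.23% (-4.48). Bambi-ps1, Carns1 and Gm14085 had log2 ratios of -4.07, -3.63 and -3.43. Ms4a4c and Gm14085 have close relatives in the genome, so their counts are uncertain.

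**Figure D3:**
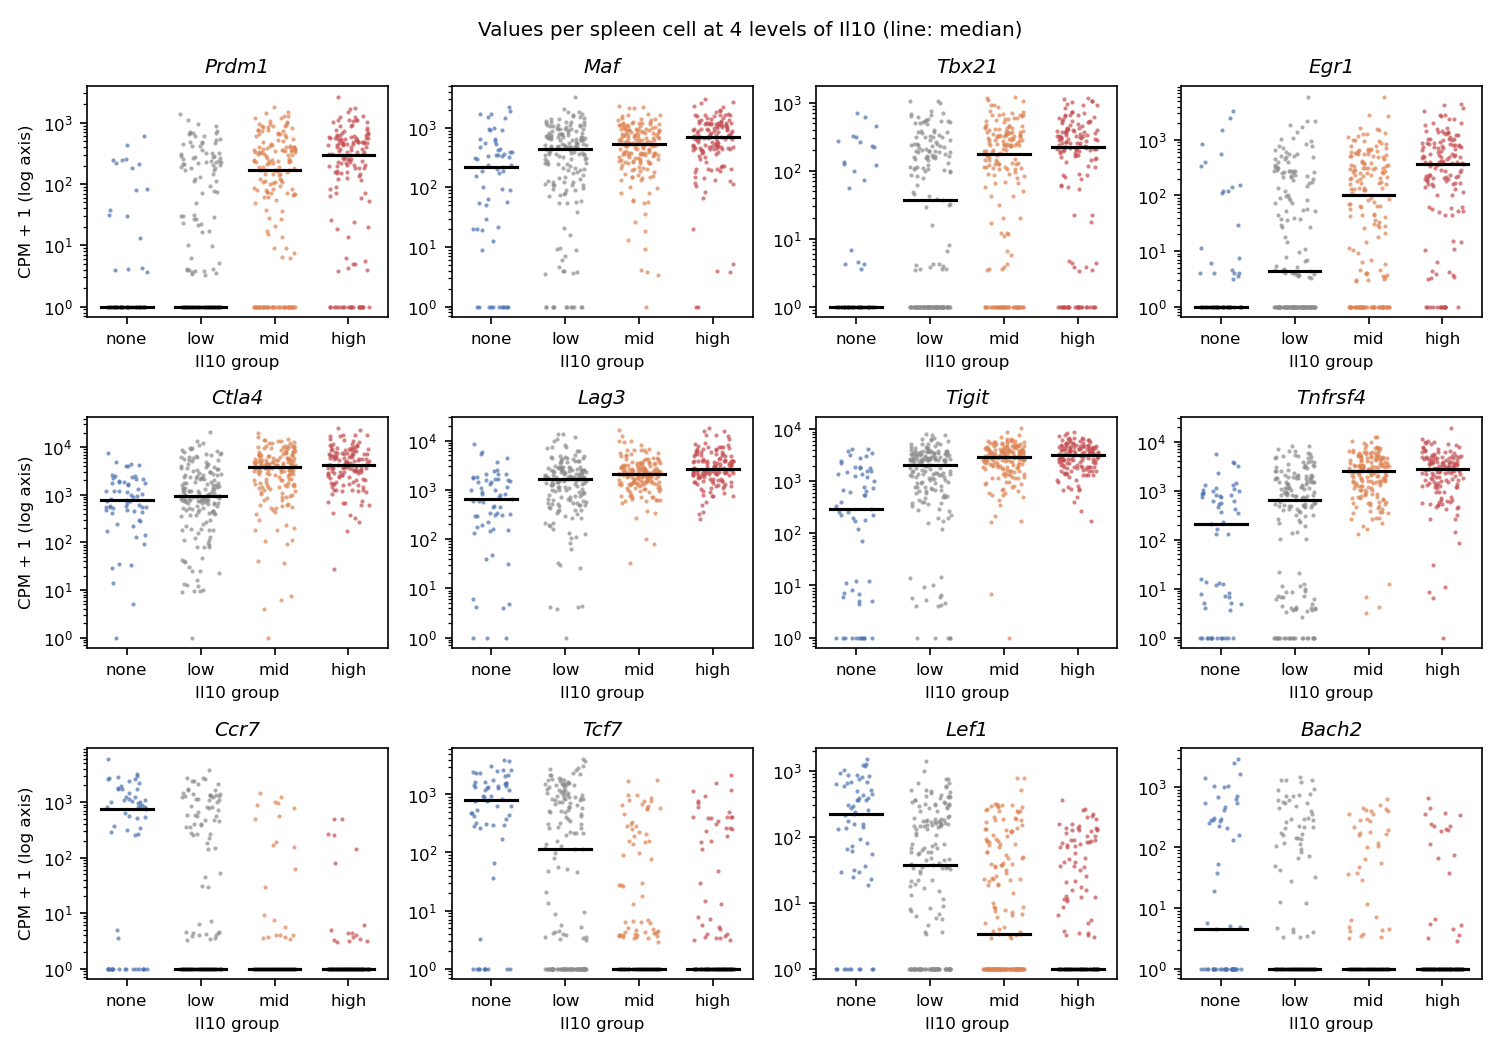
CPM + 1 (log axis) of 12 genes in each spleen cell of the none, low, mid and high Il10 groups; black lines are medians and cells on the bottom line had no read. With both plates pooled, the medians of Prdm1 (0 and 298.996 CPM) and Tigit (295.1 and 3155 CPM) are higher in high than in none cells. Those of Ccr7 (736.2 and 0 CPM) and Tcf7 (806 and 0 CPM) are lower, while single cells overlap in each panel.

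Because Prdm1 and Ccr7 marked opposite ends, they were read together in each cell, a pairing chosen after their values were seen. Among high cells, 78.9% had a Prdm1 read and no Ccr7 read, and 3 cells (2.11%) the reverse. Among none cells, 12 of 61 (19.7%) had Prdm1 without Ccr7 and 38 (62.3%) Ccr7 without Prdm1. Both genes were read in 8 high (5.63%) and 5 none cells (8.20%). The none group was therefore not uniform, and its makeup differed between the plates. On p2, 30 of 36 none cells (83.3%) had Ccr7 without Prdm1 and 1 the reverse. On p1, 8 of 25 none cells (32%) had Ccr7 without Prdm1, and 11 (44%) had Prdm1 without Ccr7.

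All 3 of Ccr7, Tcf7 and Lef1 were read in 39 none cells (63.9%, interval 50.6 to 75.8), 29.6% of low, 5.81% of mid and 2 high cells (1.41%, 0.171 to 5). Within the plates the none and high shares were 32% and 0.84% on p1, and 86.1% and 4.35% on p2. Both plates thus had the same order, at very different levels in the none cells. Of the 15 naive or central memory genes, a none cell had reads of 1 to 14 (median 10) and a high cell of 0 to 13 (median 5); on p1 the medians were 7 and 5, on p2 10 and 6. Whether p2 received more cells of a resting kind at the sort was not tested, and the plates cannot be told apart from any difference in animal or sort.

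Co-inhibitory receptors, which mark Tr1 cells and chronically stimulated T cells, were next. Of 13 measured genes of co-inhibitory and Tr1-associated receptors, 7 were higher in high cells and 0 lower. The median log2 ratio was 1.59 over all cells, 1.12 on p1 and 2.17 on p2. The ranges and medians of the next 3 genes pool both plates, and p2 supplied 36 of the 61 none cells but only 23 high cells. How far the plates carry these gaps was not tested. Lag3, an MHC class II binding receptor, lay between 255.97 and 18406 CPM in high cells (median 2630) and between 0 and 8681 CPM in none cells (median 651.6). Tigit, which competes with CD226 for CD155, lay between 173.5 and 9004 CPM in high (median 3155) and 0 and 4224 CPM in none cells (median 295.1). Ctla4, the CD80 and CD86 receptor that opposes CD28, lay between 27.1 and 25928 CPM in high (median 4215) and 0 and 7534 CPM in none cells (median 792.5). For these 3 genes the groups overlapped, yet no more than 5 of the 61 none cells exceeded the high median, and every high cell had a read.

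The log2 ratios were 1.62 for Lag3, 1.89 for Tigit and 2.06 for Ctla4. Unlike Prdm1 or Ccr7, these receptors were also read in most none cells: Ctla4 in 98.4%, Lag3 in 95.1% and Tigit in 77%. For Ctla4 and Lag3 the groups thus differed in level more than in the share of cells with a read, and for Tigit in both. The other higher receptors were read in a minority of cells in both groups. Havcr2, which encodes TIM-3, was read in 35.2% and 9.84% of high and none cells (log2 ratio 1.59), Entpd1, the ectonucleotidase CD39, in 45.8% and 16.4% (1.72), Lilrb4 in 45.8% and 9.84% (2.95), and Cd160 in 6.34% and 3.28% (3.09). Of the summed Havcr2 CPM of none cells, 83.6% came from 1 cell, and without the highest cell of each group the log2 ratio was 3.93; Lilrb4 has a near-identical paralog, so its count is uncertain.

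Pdcd1, which encodes PD-1, differed between the plates. Its log2 ratio was 1.16 over all cells, 2.92 on p2 and 0.15 on p1, where its mean was 772.7 CPM in high and 698.6 CPM in none cells. Icos had ratios of 1.20 over all cells and 0.93 on p1. Btla and Cd200, both receptors or ligands of inhibitory signalling, had ratios of -0.85 each. Itga2, which encodes CD49b, a Tr1 surface marker, was under the limit for measured genes; it was read in 6.34% of high and 0 of 61 none cells, where a share of up to 4.92% could be missed. The number of the 15 receptor genes in the table that were read in a cell was 4 to 11 in high (median 8) and 3 to 10 in none cells (median 6), and on p1 the median was 7 in both groups.

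**Figure D4:**
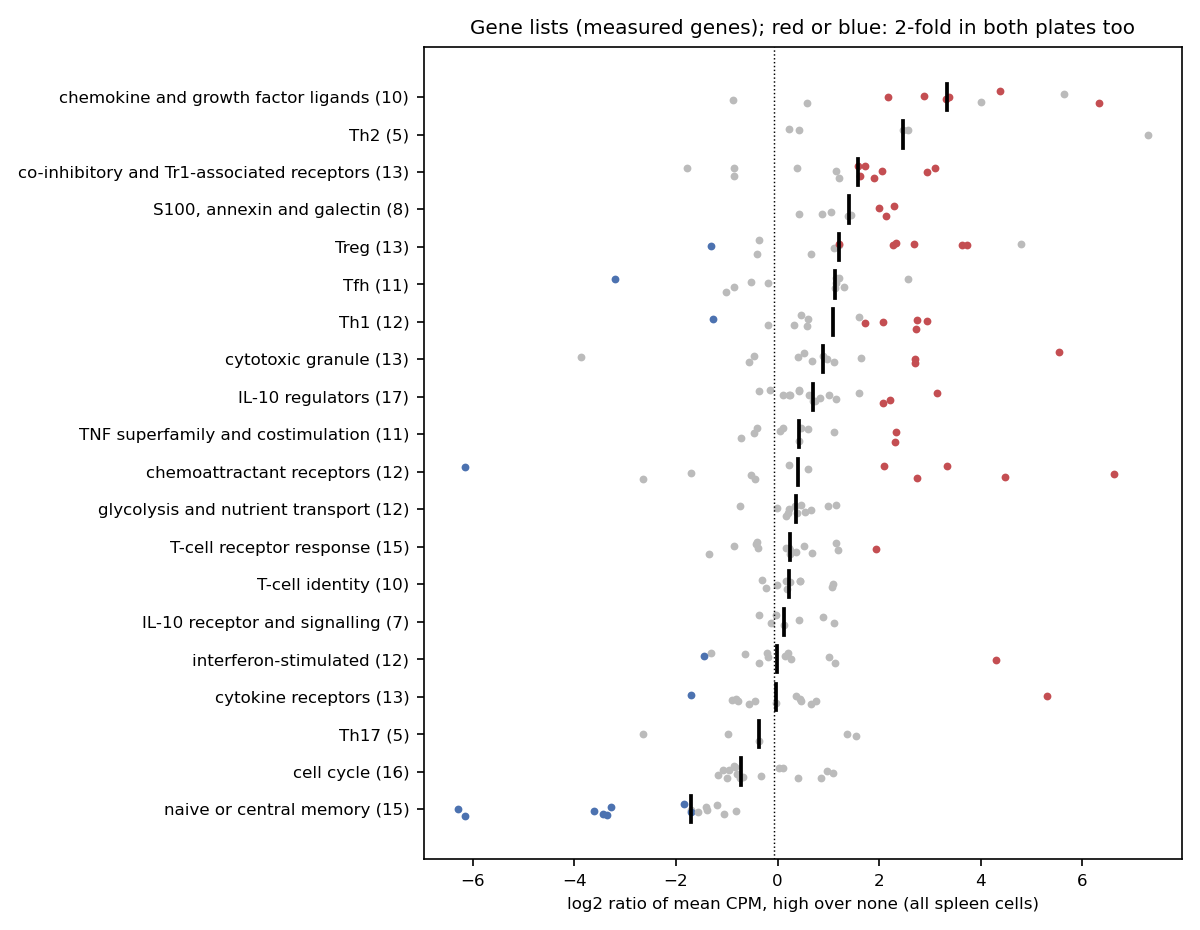
Each point is a measured gene, placed by its log2 ratio of mean CPM, high over none, within 1 of 20 lists with at least 5 measured genes (number of genes in brackets); red and blue mark genes called higher and lower, black bars the list medians and the dotted line the median of all measured genes, -0.06. The naive or central memory list lies wholly below 0, with a median of -1.71, and the list of co-inhibitory and Tr1-associated receptors has 7 genes called higher and a median of 1.59.

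Genes of Treg cells were raised in part with Foxp3 itself. Foxp3 was read in 35.2% of high (interval 27.4 to 43.7) and 8.20% of none cells (2.72 to 18.1), with a maximum of 1085 and 660.2 CPM and a log2 ratio of 3.62. In the none group 94% of the summed Foxp3 CPM came from 1 cell. Foxp3 reads were unevenly spread over the wells: without thinning they were present in 41 of 58 high cells in columns 1 to 12 of p1, 11 of 61 in columns 13 to 24 of p1 and 3 of 23 on p2. Among none cells of these sets they were present in 2 of 10, 3 of 15 and 1 of 36. In columns 13 to 24 of p1 the shares were 18% of high and 20% of none cells, so the high share was not the larger there. Of 13 measured Treg genes, 6 were higher (Foxp3, Il2ra, Tnfrsf4, Capg, Itgae and Itgb8) and 1 lower (Gpr83), with a median log2 ratio of 1.21. Ikzf2, which encodes HELIOS, had a ratio of 1.20 over all cells, 0.07 on p1 and 3.70 on p2.

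The comparison was therefore repeated in the 87 high and 55 none cells without a Foxp3 read. There 4.71% of genes were higher and 4.74% lower by the same rule. Of the genes called in all cells, 79.9% of the higher and 77.5% of the lower ones also passed among the Foxp3-free cells. The Treg list changed to 2 higher and 2 lower genes, whereas the same 7 co-inhibitory receptors were higher and the same 8 naive or central memory genes lower. Log2 ratios without Foxp3-read cells were 3.38 for Prdm1, -5.72 for Ccr7, 1.73 for Lag3 and 1.91 for Ctla4, close to those of all cells, but 1.0 for Itgae and 0.28 for Itgb8, which were 3.72 and 2.28 before.

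Tnfrsf4, which encodes the costimulatory receptor OX40, lay between 0 and 19386 CPM in high cells (median 2699) and between 0 and 5673 CPM in none cells (median 210.7), with a log2 ratio of 2.33. Tnfrsf1b, which encodes TNF receptor 2, lay between 0 and 3346 CPM in high (median 825.2) and 0 and 2263 CPM in none cells (median 2.95), with reads in 94.4% and 47.5% of cells and a log2 ratio of 2.32. In each case 4 none cells exceeded the high median. These were the 2 genes higher of 11 measured in the TNF superfamily and costimulation list, with 0 lower. Both stayed near these ratios without Foxp3-read cells, at 2.12 and 2.01. Cd28 and Cd27, costimulatory receptors of most T cells, had ratios of 0.11 and 0.46.

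Il2ra, the high-affinity IL-2 receptor chain CD25, was read in 74.6% of high and 37.7% of none cells (log2 ratio 2.68, and 2.08 without Foxp3-read cells). Of 15 measured genes that respond to T-cell receptor signals, only Egr1, an immediate early zinc finger factor, was higher, and 0 were lower. Egr1 lay between 0 and 4364 CPM in high cells (median 372.7) and between 0 and 3327 CPM in none cells (median 0). It was read in 87.3% of high (interval 80.7 to 92.3) and 29.5% of none cells (18.5 to 42.6), with log2 ratios of 1.93 over all cells, 3.51 on p1 and 1.94 on p2. Its neighbours in function did not follow: log2 ratios were 0.37 for Nr4a1, 0.25 for Fos, -0.43 for Egr3 and -1.34 for Cd69, an early activation antigen read in 31% of high and 57.4% of none cells. The list's median was 0.25.

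Th1 genes made up a further group. Of 12 measured, 5 were higher and 1 lower, with a median log2 ratio of 1.10. Ifng, the signature Th1 cytokine, was read in 41.5% of high and 18% of none cells (log2 ratio 2.95), Cxcr6, a receptor of tissue-homing effector cells, in 69% and 31.1% (2.74), and Il12rb2 and Il12rb1, the chains of the IL-12 receptor, in 34.5% and 11.5% (2.73) and 49.3% and 21.3% (1.72). Stat4, which transmits the IL-12 signal, went the other way, with reads in 48.6% of high and 73.8% of none cells and a log2 ratio of -1.27. Both receptor chains were thus higher in high cells, and the factor downstream of them was lower.

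Cytotoxic granule genes had 3 of 13 measured members higher and 0 lower (median log2 ratio 0.89). Nkg7, a granule membrane protein, lay between 0 and 19640 CPM in high (median 1987) and 0 and 13688 CPM in none cells (median 3.54), with a log2 ratio of 2.71. Gzmb, which encodes granzyme B, had a log2 ratio of 2.70, but its share of cells with a read hardly differed, at 62% and 57.4%. At 10 reads or more, 45.8% of high and 13.1% of none cells held Gzmb, and 75.4% and 16.4% held Nkg7, without thinning. On p2, which also carried small intestine cells, 72.2% of none cells had a Gzmb read but 13.9% had 10 or more, and for Gzma the values were 66.7% and 2.78%; the origin of these low counts was not tested. Gzmk was read in 9.86% of high and 1.64% of none cells (log2 ratio 5.53). Crtam had a ratio of -3.86 without passing on both plates.

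Secreted factors were higher in a minority of high cells. Of 10 measured chemokine and growth factor genes, 6 were higher and 0 lower, with a median log2 ratio of 3.34. Ccl4, a ligand of inflammatory chemokine receptors, had a mean of 1865 CPM in high and 179.9 CPM in none cells (log2 ratio 3.37), but 10 or more reads in only 33.1% and 4.92% of cells. Its relatives Ccl3 and Ccl5 had log2 ratios of 2.89 and 2.17. In the none group 1 cell held 64.2% of the summed Ccl4, 69.9% of the Ccl3 and 86.9% of the Ccl5 CPM, and without the highest cell of each group the ratios were 4.68, 4.40 and 4.83. Csf1, the macrophage growth factor, was read in 40.1% and 16.4% of cells (log2 ratio 3.31). Spp1 and Penk, at 7.75% and 4.23% of high cells, rested on few cells, and 1 high cell held 81.9% of the summed Spp1.

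Of 12 measured chemoattractant receptors, 5 were higher and 1 lower, the lower one being Ccr7. Ccr2, a receptor of inflammatory sites, was read in 38% of high and 8.20% of none cells (log2 ratio 3.34, with 2.21 on p1 and 6.32 on p2). Ccr8, found on skin-homing and Treg cells, lay between 0 and 5845 CPM in high (median 134.3) and 0 and 2502 CPM in none cells (median 0), with a log2 ratio of 2.10. Ccr9, the gut-homing receptor, was read in 14.1% and 3.28% of cells, and no none cell had 10 or more reads (log2 ratio 6.62). Ltb4r1, a leukotriene B4 receptor, was read in 20.4% and 4.92% (4.47), and Cxcr6 is given above. Cxcr5, the receptor of B-cell follicles, did not separate the groups, with reads in 48.6% and 49.2% of cells and a ratio of -0.52. Of the 12 ratios 7 were above 0, and the list's median was 0.41 over all cells, 0.08 on p1, 2.02 on p2 and -0.15 without Foxp3-read cells, where 4 of the 5 higher genes, all but Ltb4r1, still passed.

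Among the S100, annexin and galectin genes, many of which are raised in antigen-experienced T cells, 3 of 8 measured were higher and 0 lower, and all 8 ratios were above 0 (median 1.41). S100a6, a calcium-binding protein, lay between 0 and 5995 CPM in high (median 803.3) and 0 and 2743 CPM in none cells (median 2.34), with reads in 88.7% and 44.3% and a log2 ratio of 2.13. Lgals3 and Anxa4 had ratios of 2.0 and 2.29, with Lgals3 read in 43.7% and 24.6% and Anxa4 in 20.4% and 6.56% of cells.

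The remaining lists had at most 1 gene called in each direction. In the follicular helper list 0 of 11 were higher and 1 lower, Pou2af1, a B-cell coactivator read in 5.63% of high and 31.1% of none cells (log2 ratio -3.20). The list's median was 1.13, with 6 of 11 ratios above 0 and a median of 0.15 on p1 and 1.36 on p2. The lists of Th17 genes and of Th2 genes had 0 called of 5 measured each. Their medians were -0.36 and 2.47, and all 5 Th2 ratios lay above 0 over all cells, but only 1 did on p2, where the median was 0.0. Il5, a Th2 cytokine, was read in 8.45% of high and 0 of 61 none cells (a share of up to 4.92%), with 49.2% of its summed CPM in 1 high cell. Of 12 genes of glycolysis and nutrient transport, 0 were called (median 0.37). Of 12 interferon-stimulated genes, 1 was higher (Oasl2, read in 2.82% of high cells and no none cell) and 1 lower (Rsad2), and 1 high cell held 96% of the group's Rsad2 CPM. Of 13 cytokine receptors, Il1r2, a decoy receptor of IL-1, was higher, with reads in 12% and 3.28% of cells, and Il6ra lower.

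The 16 cell cycle genes were all measured and 0 were called. Their median log2 ratio was -0.71 over all cells, -1.11 on p1 and 0.20 on p2, so its sign differed between the plates. Mki67, the proliferation marker, had a mean of 348.2 CPM in high and 696.5 CPM in none cells, but a nearly equal share of cells with a read, 49.3% and 50.8%. Cells placed in G1 by cyclone, a classifier of cell cycle phase, made up 82.4% of high (interval 75.1 to 88.3) and 73.8% of none cells (60.9 to 84.2). These intervals overlapped, and whether the groups differed in cycling was not tested.

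The receptor for IL-10 itself did not go with Il10. Of 7 measured genes of the IL-10 receptor and its signalling, 0 were called. Il10ra, the ligand-binding chain, had a mean of 152.1 CPM in high and 154.99 CPM in none cells (log2 ratio -0.03), and Il10rb, the shared chain, 87.8 and 96.4 CPM (-0.13). Stat3, which the receptor activates, had a ratio of 0.43. The largest of the list was Bcl3, at 1.12 over all cells and 0.97 on p2. Genes next to Il10 on chromosome 1 were also read: Mapkapk2 had a log2 ratio of 0.48 and Eif2d 0.58, while the related cytokine genes Il19, Il20 and Il24 had no read in either group.

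Whether the same genes followed Il10 among cells that the grouping had not used was asked in the mid and low cells. Of the genes higher in high cells, 67% had a mid over low ratio above 0, compared with 46.6% of all measured genes. Of the lower genes, 79% had a ratio below 0, compared with 53.4% of all. The median mid over low log2 ratio was 0.30 for the higher and -0.48 for the lower genes, both smaller than the ratios between the extremes. Within p1 the shares were 60.9% and 72.7%, and within p2 60.1% and 75.4%. The naive or central memory list had a median of -1.10 between mid and low cells, with Ccr7 at -2.86, Id3 at -2.66 and Tcf7 at -2.56. Prdm1 stood at 1.17, Ctla4 at 1.07, Tnfrsf4 and Runx2 at 1.20 each, and Lag3 at only 0.27. The list median and these gene ratios pool both plates, and p2 supplied 77 low but 43 mid cells. All 3 of Ccr7, Tcf7 and Lef1 were read in 15.2% of low and 3.1% of mid cells on p1. On p2 these shares were 46.8% and 14%. How far the plates carry the pooled ratios was not tested.

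Over all 4 levels, 41.1% of the higher genes had means that rose at each step, as did 8.49% of all measured genes, and 61.6% of the lower genes had means that fell at each step, as did 11.9% of all. The end levels are those that chose the genes, so these shares are descriptions. The pooled share of cells with a Prdm1 read was 27.9% in none, 46.7% in low, 76.7% in mid and 84.5% in high cells. For Ccr7 these shares were 70.5%, 37.3%, 10.5% and 7.75%. The plates supplied the levels unequally. On p1, Prdm1 without Ccr7 was read in 44% of none, 45.7% of low, 75.2% of mid and 79.8% of high cells. On p2 these shares were 2.78%, 32.5%, 60.5% and 73.9%, so the step from none to low was nearly absent on p1. Ccr7 without Prdm1 fell at each step, from 32% to 1.68% on p1 and from 83.3% to 4.35% on p2. In the pooled shares, the widest step of Prdm1 lay between low and mid cells and that of Ccr7 between none and low cells. Mid and high cells had overlapping intervals for both. With both plates pooled, Egr1 reads were present in 72.1% of mid and 87.3% of high cells. Nfil3 reads were present in 44.2% of mid and 59.2% of high cells.

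**Figure D5:**
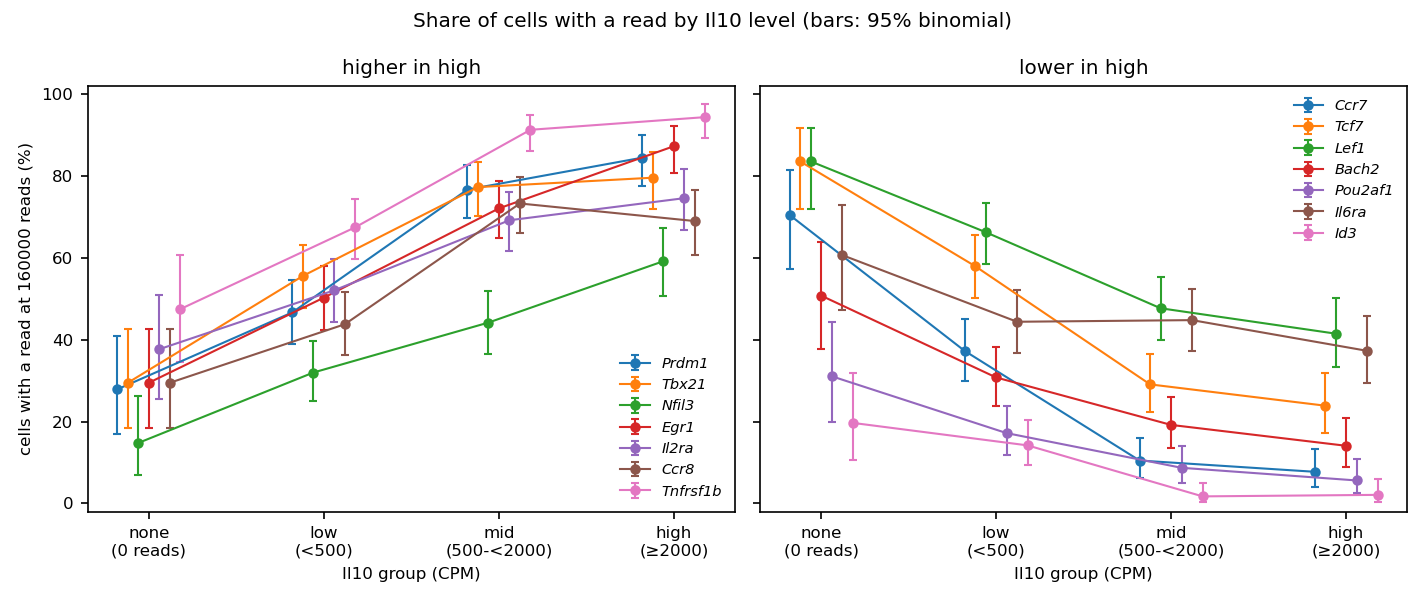
Percentage of spleen cells with a read, each cell thinned to 160000 reads, for 7 genes higher (left) and 7 genes lower (right) in high cells, at the 4 levels of Il10 in CPM; bars are 95% exact binomial intervals. With both plates pooled, Prdm1 goes from 27.9% in none to 84.5% in high cells and Ccr7 from 70.5% to 7.75%. The mid and high levels of most genes lie close together.

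In the small intestine the comparison could not be made in the same way. Of the small intestine cells with at least 160000 reads, 72 were high (41.1%) and only 2 had no Il10 read (1.14%). High cells were therefore set against all cells under 2000 CPM. Of the genes higher in the spleen comparison, 56.6% had a ratio above 0 there, beside 44.5% of all measured genes, and of the lower genes 56.5% had a ratio below 0, beside 55.3% of all. Prdm1 had a log2 ratio of 0.53 and Maf of 0.85. Tcf7, which was lower in high cells of the spleen, had a ratio of 1.83 in the small intestine, and Ccr7 of -1.09. These ratios are not like for like: the spleen ratio used cells with 0 Il10 reads, and the small intestine ratio used all cells under 2000 CPM. The opposite signs of Tcf7 therefore do not show a difference between the tissues, which was not tested.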

How the data were processed

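The deposited tables held read counts per gene for single cells, made by the authors from paired-end SMART-seq2 reads. Per the submitters' processing notes the tool was STAR and the build mm10, whereas the methods name Mm8; the counting tool was not given in the sources used here, so no positions are printed. The 23997 gene rows were used; the eGFP row was left out of totals, and 88 rows joined several genes. Groups, p1 and p2 came from wells in the labels and from Il10 itself. CPM, ratios, shares after thinning to 160000 reads and exact 95% binomial intervals were computed with Python 3.11.15, numpy 2.4.6, pandas 2.3.3 and scipy 1.17.1, and cell cycle phase with cyclone (scran 1.30.0, R 4.3.3). The calling rule was run on simulated counts. The planted changes were larger than 2-fold, lay in genes with a mean of at least 50 CPM and were alike on both plates. That run does not show how the rule finds smaller changes, or changes in genes nearer 10 CPM. No doublet caller was run, since cells were sorted singly; no columns were identical. A total of 30 spleen cells under 160000 reads were left out, which kept 544: 142 high, 172 mid, 169 low and 61 none, so 203 of the 764 cells were compared, and 348 genes were called higher and 333 lower. Each cell weighed the same, so a few cells with many reads can carry the mean of a rare gene. Named genes were those of 25 lists plus the 12 largest ratios each way with a read in at least 25% of the higher group's cells. The results of some genes of the lists and of this ranking are not reported here. The members and lists were chosen with earlier results of these data known. Alternatives were other pseudocounts, filters, scalings, limits, plates and subsets of cells.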

Additional observations from a re-analysis of the deposited data

Results flagged for a closer look

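Some listed genes had log2 ratios of at least 1 with opposite signs on the plates; the difference between plates was not tested, and 4.96% of all measured genes behaved so. Gzma, a granzyme, had a ratio of 1.33 on p1 and -1.47 on p2, where the highest none cell held 710.7 CPM. Tox2, a follicular helper factor, had -1.16 and 1.44. Tmem176b, a Th17-associated ion channel gene, had -2.0 and 1.25, with no read in none cells of p2 and a mean of 251.3 CPM in those of p1. Slc7a5, the large amino acid transporter, had 1.36 and -1.20. Ifit1, an interferon-induced gene, had -1.73 and 4.59, and 1 none cell held 58.3% of its group's summed CPM.

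The 30 spleen cells left out for fewer than 160000 reads, which held 25799 to 159010, were not devoid of Il10. An Il10 read was present in 28 of them (93.3%, exact binomial interval 77.9 to 99.2), 9 exceeded 2000 CPM and 2 had no read.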

How the results depend on the processing

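Of 1242 log2 ratios of 69 called genes under 18 alternatives, 5 changed sign: Cd160 to -0.26 with none taken as under 10 Il10 reads, Gpr83 to 1.91, Card6 to 0.48 and Aff3 to 1.20 in p1 columns 13 to 24, and Rsad2 to 3.58 in p1 columns 1 to 12. Named genes without a call had the opposite sign in 8.65% of 2844 ratios. Of 8 lists with a median of at least 1 in size, 1 changed sign, Tfh to -0.01 and -0.99 in p1 columns 13 to 24 and 1 to 12, and of 12 lists with a smaller median 7 did under at least 1 alternative (14.8% of their values); the cause was not tested. The shares of measured genes called higher and lower (4.11% and 3.93%) became 2.31% and 2.24% with a pseudocount of 10 CPM, 3.37% and 3.24% without a filter (of more genes), 2.79% and 2.05% at a mean of 50 CPM, 8.33% and 9.29% at a fold of 1.5, and 1.18% and 0.684% at a fold of 4. Needing only 1 set of wells, they were 15.2% and 13.5% on p1, 15.9% and 20.1% on p2, 19.7% and 16% in p1 columns 13 to 24, and 32.9% and 18.8% in columns 1 to 12. Lower genes were 1.9% with mean log2 values and 6.38% with high from 4000 CPM. Higher genes were 2.06% with none under 10 reads, and 6.91% without the highest cell of each group, an alternative chosen after seeing the data. Of called genes, the higher share (51.1%) was 71.9% with mean log2 values, 69.7% without the highest cells and 36.7% with high from 4000 CPM. Listed genes higher numbered 64 on p1, 86 on p2, 91 in p1 columns 1 to 12, 64 at a fold of 1.5 and 20 at a fold of 4. Listed genes lower numbered 7 at 50 CPM, 34, 32, 31 and 35 in p1, p2 and p1 columns 13 to 24 and 1 to 12, and 6 at a fold of 4. By plate, high cells were 32.6% and 12.8%, none cells 6.85% and 20.1%, and higher genes also higher in mid cells 60.9% and 60.1% (lower genes, p1, 72.7%). At 10 reads, eGFP was in 81% of high and 0% of none cells. No paired analysis was possible because the labels give no replicate numbers and no test was run. Rare genes rest on few cells, and 1 sample without replicates limits every value.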
